A study of Mus musculus with 6 samples.

Results

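Matricellular proteins are secreted proteins that sit in the extracellular matrix and act on cells rather than serving mainly as its scaffold. This account follows 10 genes of that kind and of the provisional matrix in RPE/choroid, which joins the retinal pigment epithelium (RPE) to the vessel-rich choroid below. They are the thrombospondins Thbs1, Thbs2, Thbs3 and Thbs4, the tenascins Tnc and Tnxb, Postn, Sparc, Fn1 and Vcan. They were picked by symbol from the deposited table, in which all 10 were found among 33924 gene symbols. The table gives 1 line per gene, and the 10 genes held 0.448% of its summed expression.

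Total RNA, depleted of ribosomal RNA, came from 3 young and 3 aged wild-type C57BL/6J mice, with 2 eyes in each sample. The labels put the young mice at 1 to 2 months and the aged mice at 20 to 24 months in the titles and 22 to 24 months in a second label. The sex label reads male throughout, but males and females, and a somewhat older young group, are described in the study's methods. No group carries a transgene or received a treatment. The layer was scraped off the sclera after cornea, muscle and neural retina had been cut away, so choroidal cells were measured together with RPE.

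For each gene the deposited table holds baseMean, the average normalized count of the 6 libraries, and the DESeq2 log2 fold change, standard error (SE) and adjusted p. No value per mouse was analysed here, so replicate error enters only through the SE, and depth per library is unknown here. The file does not say which group its fold change is relative to. It was read as young over aged, from the direction the study describes for its called genes, and the sign was turned so that a positive value is higher in aged mice. Every direction below rests on that reading. Group means per age were worked out from baseMean and fold change, and no error can be given for them.

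Thrombospondins are multidomain glycoproteins that bind cell-surface receptors, calcium and other matrix proteins. Thbs1 and Thbs2 form trimers and carry the properdin-like repeats that bind CD36, and both are known inhibitors of angiogenesis. Thbs3, Thbs4 and their relative Comp form pentamers, and Comp and Thbs4 are abundant in cartilage, tendon and muscle attachments. Periostin (Postn), SPARC and tenascin-C (Tnc) are produced by matrix-forming cells in development and after injury. Versican (Vcan) is a large chondroitin sulfate proteoglycan that binds hyaluronan, and fibronectin (Fn1) is the integrin ligand on which provisional matrix is assembled. In the eye, thrombospondin-1 is made by the RPE, and Bruch's membrane and the choroid lie directly beneath that layer.

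The 250 bases before the start site are shown for the 3 genes with the largest falls and for the 2 genes that rose, since these carry the main contrast below. They are RefSeq promoter sequences of GRCm38.p6, the build of the authors' annotation. They were searched on both strands for TATAAA, the TATA box, for GGGCGG, the GC box, for TGANTCA, bound by AP-1, and for GGAATG, bound by TEAD factors, and capitals mark the matches. The windows are Postn chr3:54360857-54361106 (+), Sparc chr11:55420081-55420330 (-), Vcan chr13:89742513-89742762 (-), Thbs4 chr13:92794819-92795068 (-) and Tnc chr4:64047016-64047265 (-).
Postn: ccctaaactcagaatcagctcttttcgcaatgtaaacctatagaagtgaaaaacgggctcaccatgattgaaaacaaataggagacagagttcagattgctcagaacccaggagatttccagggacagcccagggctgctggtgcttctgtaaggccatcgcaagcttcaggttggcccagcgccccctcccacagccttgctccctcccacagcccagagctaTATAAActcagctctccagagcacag
Sparc: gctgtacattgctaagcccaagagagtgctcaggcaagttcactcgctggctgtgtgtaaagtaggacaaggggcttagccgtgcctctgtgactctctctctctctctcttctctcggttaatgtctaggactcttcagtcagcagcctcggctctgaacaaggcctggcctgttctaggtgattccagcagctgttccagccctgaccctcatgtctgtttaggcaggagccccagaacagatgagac
Vcan: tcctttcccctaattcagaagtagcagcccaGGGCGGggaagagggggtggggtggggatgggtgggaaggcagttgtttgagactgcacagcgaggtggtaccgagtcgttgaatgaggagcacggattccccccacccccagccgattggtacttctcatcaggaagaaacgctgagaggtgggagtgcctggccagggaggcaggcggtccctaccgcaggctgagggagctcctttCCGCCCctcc
Thbs4: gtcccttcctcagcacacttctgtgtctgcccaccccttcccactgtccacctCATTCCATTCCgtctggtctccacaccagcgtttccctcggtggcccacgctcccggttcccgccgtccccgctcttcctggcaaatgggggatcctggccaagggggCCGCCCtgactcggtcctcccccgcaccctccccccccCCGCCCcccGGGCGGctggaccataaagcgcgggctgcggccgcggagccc
Tnc: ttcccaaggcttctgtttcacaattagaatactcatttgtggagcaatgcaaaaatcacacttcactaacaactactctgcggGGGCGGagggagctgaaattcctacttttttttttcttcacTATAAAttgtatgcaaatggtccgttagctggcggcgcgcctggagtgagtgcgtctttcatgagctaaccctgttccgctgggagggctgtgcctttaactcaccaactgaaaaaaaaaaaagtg

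Postn held a TATAAA word whose first base lies 26 bases before the start, and the window of a second Postn start, further upstream, held none of the 4 words. Sparc held none of them. Vcan held 2 GC boxes, at 219 and 10 bases. Thbs4 held 3 GC boxes, between 89 and 42 bases, and 2 GGAATG words that overlap by 1 base, at 197 and 192 bases. Tnc held a TATAAA word at 126 bases and a GC box at 167 in the window printed. Counted from a second Tnc start, the same words lie at 205 and 246 bases. Words occurred on both sides of the contrast, since Postn and Tnc both held TATAAA, and Vcan, Thbs4 and Tnc all held GC boxes. Among the 32851 start sites of the RefSeq table, TATAAA occurred in 12.4% of the same 250-base windows, GGGCGG in 32.7%, TGANTCA in 6.75% and GGAATG in 12.6%. A start site was given for 8 of the 10 genes. Of those not printed, Thbs2 held TATAAA at 126 bases, Thbs3 a GC box at 21 bases and Tnxb an AP-1 word at 55 bases.

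All 10 genes were abundant enough to be tested. By DESeq2 with an adjusted p under 0.05, 6 were lower in aged mice (Postn, Sparc, Vcan, Thbs3, Thbs2 and Tnxb), 2 were higher (Thbs4 and Tnc), and 2 did not pass (Thbs1 and Fn1). Over all 18636 genes tested, 9.92% were lower and 11.3% were higher. The lowest of the 10 genes had a baseMean of 378, and calls depend on abundance, so the background was also counted over the 9523 genes with a baseMean of at least 300, of which 7.59% were lower and 15.4% higher. Their median change on the log2 scale was -0.55, against -0.01 over all genes tested and 0.09 over those with a baseMean of at least 300. After centring, which subtracts the median of genes with a baseMean of at least 100 and shifts all values by 0.06, the split over all genes moved from 1849 lower and 2100 higher to 2289 lower and 1650 higher, whereas the 10 genes stayed at 6 lower and 2 higher. A fall to 0.5 of the young level or below, with an adjusted p under 0.05, was seen for 3 of the 10 (Postn, Sparc and Vcan) and for 4.62% of all genes tested.

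**Figure D1:**
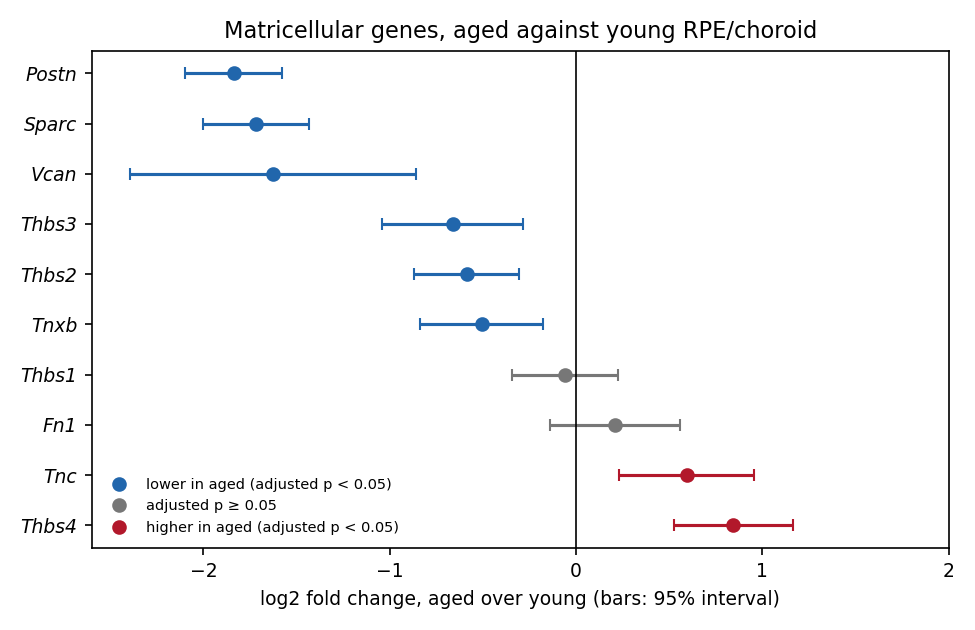
Log2 fold change of the 10 genes, aged over young, on the horizontal axis, with 95% intervals from the SE as bars (3 mice per group); colour gives the DESeq2 call. Postn, Sparc and Vcan lie near -1.7 with a much wider bar for Vcan, a second group of 3 lies near -0.6, and Tnc and Thbs4 lie above 0.

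The largest fall was that of Postn, the gene for periostin, a fasciclin-domain protein that binds integrins and collagen and helps to organize collagen fibrils. It lies on chromosome 3 at 54361109 to 54391037. Its worked-out mean was 6056 normalized counts in young and 1694 in aged mice, so aged tissue held 28.0% of the young level. The log2 fold change was -1.84 (SE 0.13, 95% interval -2.10 to -1.58, DESeq2 adjusted p 7.44e-41). Among all genes tested it had the 65th smallest p and the 89th largest fall.

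Sparc, on chromosome 11 at 55394500 to 55423183, encodes a collagen-binding glycoprotein that aids collagen assembly. Its worked-out mean went from 38476 in young to 11703 in aged mice, 30.4% of the young level. The log2 fold change was -1.72 (SE 0.14, 95% interval -2.0 to -1.43, DESeq2 adjusted p 3.57e-30). Postn and Sparc fell by sizes whose intervals overlap. Since Sparc is abundant, it carried most of the drop in the summed worked-out counts of the 10 genes, from 101208 in young to 70642 in aged mice.

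Vcan, on chromosome 13 at 89655312 to 89742509, had a point estimate of the same order but far less precision. Its worked-out mean was 1534 in young and 496 in aged mice. The log2 fold change was -1.63 (SE 0.39, DESeq2 adjusted p 0.000423), and the 95% interval from -2.40 to -0.86 corresponds to an aged level between 19.0% and 55.1% of the young one. Among the 5298 genes tested with a baseMean within 2 times that of Vcan, the median SE was 0.15, and 98.7% had a smaller SE than Vcan. The next largest SE among the 10 genes was 0.19, that of Thbs3.

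Vcan belonged to a separate band of imprecise genes. Among the 9523 genes with a baseMean of at least 300, 0 had an SE between 0.32 and 0.34, and 174 (1.83%) lay above that gap. The limit was set after the values had been seen. Of those 174 genes, 15 were called by DESeq2, 12 of them lower in aged mice, and Vcan had the 6th smallest p among them. The rod photoreceptor markers Gnat1, Sag, Pde6b, Rcvrn and Nrl lay in the band, as did the epithelial keratins Krt5, Krt6a, Krt12, Krt13 and Krt15, of which Krt12 is a corneal epithelial marker. Of the 6 skeletal muscle markers tested, 1 did, the actin gene Acta1, and none of the 7 RPE or 10 fibroblast markers tested did. By the study's methods, cornea and neural retina were removed before collection. Whether Vcan shares a source with these genes was not tested.

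**Figure D2:**
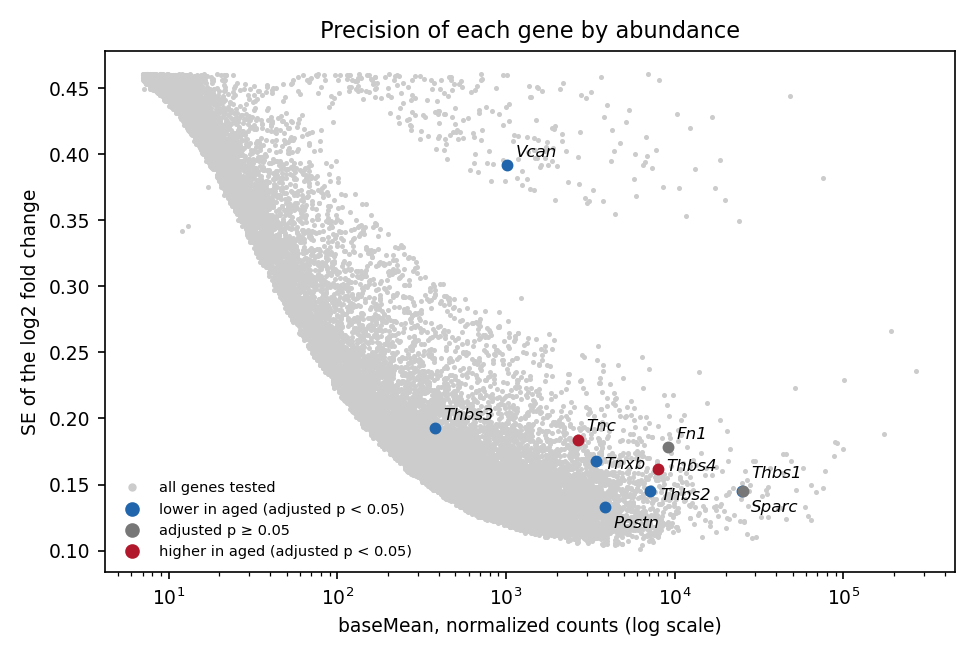
SE of the log2 fold change (vertical) against baseMean in normalized counts (horizontal, log scale) for all 18636 genes tested in grey, with the 10 genes coloured by call. Vcan, at an SE of 0.39, sits in the upper band and the other 9 genes in the main cloud, where the points of Thbs1 and Sparc nearly coincide.

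The thrombospondins did not move as a family. Thbs4 rose, Thbs2 and Thbs3 fell, and Thbs1 did not pass the test. Thbs1, on chromosome 2 at 118111876 to 118127133, had the highest baseMean of the 10 genes, 25346. Its worked-out mean was 25872 in young and 24819 in aged mice, a log2 fold change of -0.06 (SE 0.15, DESeq2 adjusted p 0.819). The 95% interval from -0.34 to 0.22 leaves room for an aged level between 78.8% and 117% of the young one.

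Thbs2, on chromosome 17 at 14665500 to 14694235, fell from a worked-out mean of 8595 to 5718, with a log2 fold change of -0.59 (SE 0.14, 95% interval -0.87 to -0.30, DESeq2 adjusted p 0.000613). Its interval and that of Thbs1 overlap between -0.34 and -0.30, and the difference between the genes was not tested. Thbs3, on chromosome 3 at 89215180 to 89226837, was the least abundant of the 10 genes. It fell from 463 to 293, with a log2 fold change of -0.66 (SE 0.19, DESeq2 adjusted p 0.00498). Thbs3 overlaps Mtx1, a mitochondrial import gene on the opposite strand, which had 0.14 (SE 0.15, DESeq2 adjusted p 0.546).

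Thbs4, on chromosome 13 at 92751590 to 92794818, rose from a worked-out mean of 5658 to 10162. The log2 fold change was 0.84 (SE 0.16, 95% interval 0.53 to 1.16, DESeq2 adjusted p 4.36e-06), the largest rise among the 10 genes. Comp, the other pentameric thrombospondin listed beside them, rose as well, from 1207 to 2363, with a log2 fold change of 0.97 (SE 0.16, DESeq2 adjusted p 2.53e-08). Within the pentameric group, Thbs4 and Comp were therefore higher in aged mice and Thbs3 lower.

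Per kb of exon, the 4 thrombospondins summed to 7304 normalized counts in young and 8053 in aged mice. Undivided, their sum was 40589 in young and 40991 in aged mice, so the size of the summed difference depends on the division by length. Thbs1 held 58.3% of the young sum and 50.7% of the aged sum, and Thbs4 held 23.6% and 38.4%. Undivided, Thbs4 held 13.9% of the young sum and 24.8% of the aged sum, and Thbs1 63.7% and 60.5%. The share of Thbs2 was 16.8% in young and 10.1% in aged mice, and that of Thbs3 was 1.32% and 0.754%. These shares come from worked-out means, so no interval can be given for them.

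The tenascins went in opposite directions. Tnc, on chromosome 4 at 63959785 to 64047015, encodes a large glycoprotein that modulates cell adhesion to fibronectin. It rose from a worked-out mean of 2114 to 3189, with a log2 fold change of 0.59 (SE 0.18, 95% interval 0.23 to 0.95, DESeq2 adjusted p 0.00950). Tnxb, on chromosome 17 at 34670535 to 34719815, encodes tenascin-X, a tenascin of loose connective tissue whose loss in people gives a form of Ehlers-Danlos syndrome. It fell from 3990 to 2807, with a log2 fold change of -0.51 (SE 0.17, 95% interval -0.84 to -0.18, DESeq2 adjusted p 0.0164). The intervals of the tenascins do not overlap, and the difference itself was not tested.

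Tnxb has a partial pseudogene copy nearby, Tnxa. Of the 31-base words in Tnxb transcripts, 9.69% also occur in Tnxa and 90.3% occur in no other gene, whereas at least 98.1% of the words of each of the other 9 genes are their own. Tnxa was listed at a baseMean of 0.

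Fn1, on chromosome 1 at 71585520 to 71653200, had a worked-out mean of 8449 in young and 9762 in aged mice. The log2 fold change was 0.21 (SE 0.18, DESeq2 adjusted p 0.444), and its interval from -0.14 to 0.56 includes 0. Fn1 and Vcan, both components of provisional matrix, had intervals that do not overlap, a difference that was not tested either. The splice forms of Fn1 and Vcan are summed in the table and could not be told apart.

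Levels were compared between genes per kb of exon. The study's methods describe the normalized counts as derived from TPM, an abundance scaled by transcript length, so the values may already be corrected for length, and then the undivided order applies. In young mice Sparc stood highest at 10157 normalized counts per kb, followed by Thbs1 (4260), Thbs4 (1720), Thbs2 (1227), Fn1 (723), Postn (696), Tnxb (327), Tnc (272), Vcan (106) and Thbs3 (96.1). Undivided, Thbs4 stood 6th in young mice, below Sparc, Thbs1, Thbs2, Fn1 and Postn, and 3rd in aged mice. Per kb of exon, Thbs1 stood highest in aged mice at 4087, and Thbs4 and Sparc followed at 3090 and 3089. Postn moved from the 6th to the 8th place in this order, at 195, below Tnc (410) and Tnxb (230). No spread over mice was available for a level, so the order of close neighbours, such as Fn1 and Postn in young mice or Thbs4 and Sparc in aged mice, is not established. Exon length was the union over all annotated transcripts, 8.70 kb for Postn, of which 2.52 kb can be coding.

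**Figure D3:**
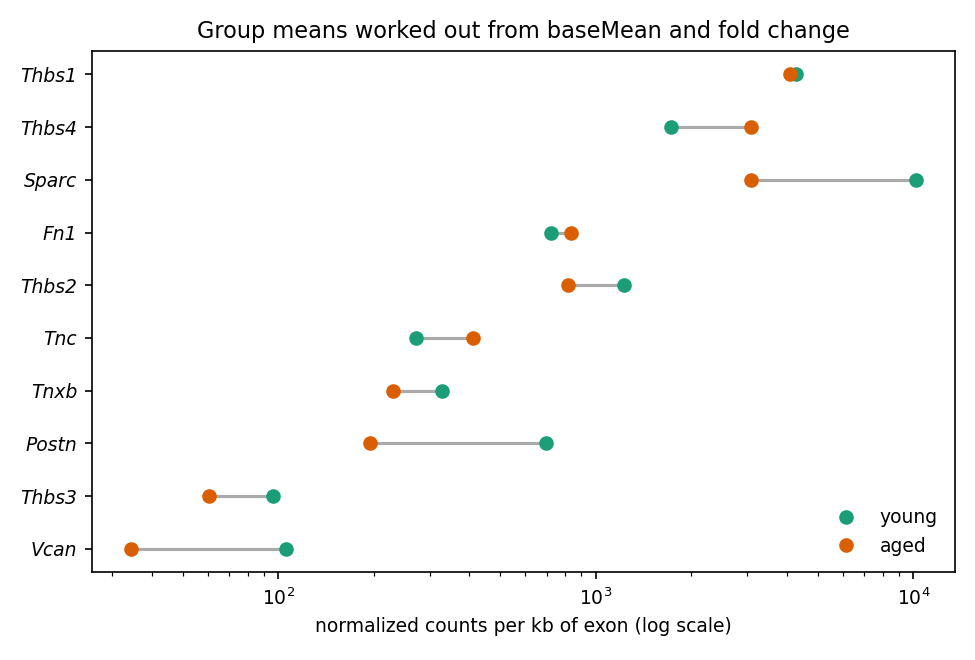
Worked-out mean level of each of the 10 genes in young and aged mice, in normalized counts per kb of exon on a log axis, 1 point per age group and no error bars because no value per mouse was analysed. Sparc, Postn and Vcan show the longest shifts to the left with age, Thbs4 and Tnc shift to the right, and Thbs1 hardly moves.

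Other matricellular genes, from a list written beside these 10, went both ways. Of 18 listed and tested, 5 were lower and 6 were higher in aged mice by DESeq2, with a median log2 fold change of 0.01, which turned to -0.05 after centring. Over all genes tested, 9.92% were lower and 11.3% higher. Spp1, the gene for osteopontin, rose most, from a worked-out 4001 to 10166 (log2 fold change 1.35, SE 0.20). Ctgf (Ccn2), a fibrosis-associated CCN protein, had 0.99 (SE 0.16), and its relative Cyr61 (Ccn1) had 0.12 (SE 0.20, DESeq2 adjusted p 0.725). Nov (Ccn3) fell, at -1.0 (SE 0.16). Of the SPARC relatives, Fstl1 fell at -0.97 (SE 0.15) and Sparcl1 rose at 0.48 (SE 0.17, DESeq2 adjusted p 0.0232), a call that centring ended (adjusted p 0.0559). Tgfbi, the fasciclin-domain relative of Postn, rose at 0.61 (SE 0.15), opposite in direction to Postn. Tnn, another tenascin, fell most, at -2.35 (SE 0.41), but from a worked-out level of only 49.0 to 9.62.

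Of 20 listed receptors of these proteins, 7 were higher and 2 lower (3 after centring), with a median log2 fold change of 0.28. All have a baseMean above 300, where 15.4% of genes tested were higher and 7.59% lower, so the lower count is near the background. Cd36, the scavenger receptor that binds the repeats of thrombospondin-1 and -2, rose from a worked-out 1399 to 5743, with a log2 fold change of 2.04 (SE 0.13, DESeq2 adjusted p 4.80e-53). Cd47, the thrombospondin receptor best known as a signal against phagocytosis, had 0.50 (SE 0.13, DESeq2 adjusted p 0.00151). Lrp1, an endocytic receptor that clears thrombospondins, had 0.96 (SE 0.16), and the integrin subunit Itgb5 had 0.79 (SE 0.14). The hyaluronan receptor Cd44 rose at 0.52 (SE 0.16). The genes that fell were Itga8, whose integrin binds fibronectin and tenascin-C, at -0.71 (SE 0.19), and Cacna2d1, a calcium channel subunit and neuronal thrombospondin receptor, at -0.61 (SE 0.14).

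Partners and proteases of the provisional matrix included 11 of 25 genes that were lower and 4 that were higher, with a median of -0.59. Against 9.92% lower and 11.3% higher over all genes tested, the higher count is near the background. Centring gave 12 lower and 3 higher, and the higher call that ended was that of Fbln1 (0.38, SE 0.12). Among the lecticans, the family of Vcan, Acan (aggrecan) fell at -2.79 (SE 0.32) and Bcan (brevican) rose at 3.08 (SE 0.24), from a worked-out 59.9 to 508. Of the 6 proteases known to cleave versican, 4 were lower and 1 was higher. Adamts20 had -1.60 (SE 0.21), Adamts9 -1.39 (SE 0.16) and Adamts4 0.95 (SE 0.26). Of 6 fibulins and fibrillins, 3 were lower and 2 higher, namely Fbln1 and Fbln7, the latter at 0.67 (SE 0.16).

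**Figure D4:**
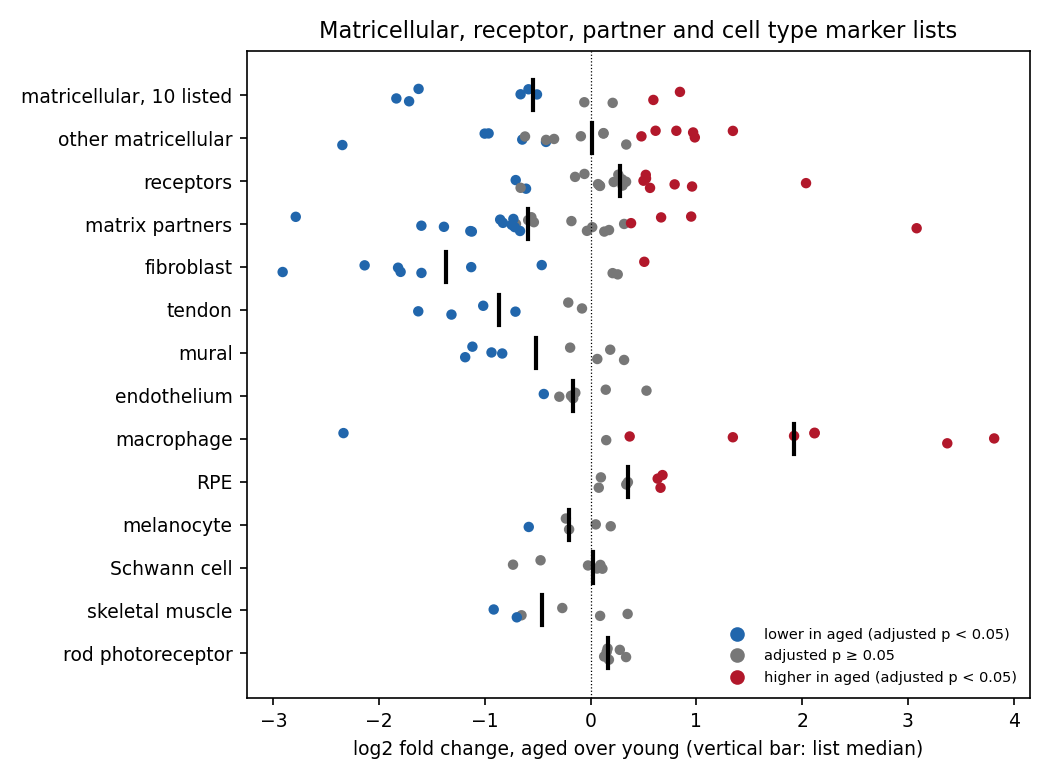
Log2 fold change, aged over young, of every gene tested in each list, 1 point per gene coloured by DESeq2 call, with the list median as a vertical bar. The 10 genes and the matrix partners lie mostly left of 0, other matricellular genes lie on both sides, and fibroblast and macrophage markers lie furthest left and right.

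In bulk tissue, fewer cells of a type and less RNA per cell cannot be told apart, so cell type markers were read in the same table. Their counts stand against 9.92% lower and 11.3% higher over all genes tested, and 7.59% and 15.4% over those with a baseMean of at least 300. Of the fibroblast markers, 7 of 10 were lower and 1 was higher, with a median of -1.37. Their summed worked-out level in aged mice was 41.8% of the young one. Col1a1 (80949.5 to 10746.5) and Col3a1 (57962 to 13170) carried most of that drop, whereas Dcn rose from 35871 to 50989. The markers were not lowered alike. Col1a1 had -2.91 (SE 0.17), Col3a1 -2.14 (SE 0.13) and Dpt -1.82 (SE 0.27), whereas Dcn had 0.51 (SE 0.13). The fibroblast genes Lum and Pdgfra, at 0.26 (SE 0.14) and 0.21 (SE 0.14), did not pass the test. Of the tendon markers, 4 of 6 were lower (Cilp -1.63, Chad -1.32 and Fmod -1.02 among them) and 0 were higher. Whether the rises of Thbs4 and Comp have a source in tendon was not tested. Skeletal muscle markers had 2 of 6 lower (Mylpf -0.92, Myh1 -0.70) and 0 higher. Over all listed genes, they summed to a worked-out 139285 normalized counts in young mice, against 80225 for rod markers and 271291 for RPE markers.

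Of the mural markers, 4 of 8 were lower, the contractile genes Myh11 (-1.19), Cnn1 (-1.12) and Acta2 (-0.94) among them, and 0 were higher. The other 4 did not pass the test. Among them, the pericyte genes Rgs5, Cspg4 and Pdgfrb had 0.32 (SE 0.18), 0.19 (SE 0.20) and 0.06 (SE 0.18), and the remaining one lay below 0. The summed worked-out level of the mural markers in aged mice was 97.4% of the young one. Of the macrophage markers, 7 of 9 were higher (Trem2 3.82, Cd68 3.37 and Adgre1, listed as Emr1, 2.12 among them) and Cd163 was lower at -2.34. Their summed worked-out level in aged mice was 255% of the young one. Which cells the RNA of Spp1 and Cd36 came from was not tested. RPE markers had 3 of 7 higher (Best1 0.68, Mertk 0.66 and Rgr 0.63) and 0 lower. The call of Best1 (DESeq2 adjusted p 0.0409) ended after centring (0.0699) and with no filter on low genes (0.0573). Endothelial markers had 1 of 7 lower (Tek -0.44) and melanocyte markers 1 of 5 lower (Tyr -0.59), single calls from which nothing is read about these cell types. Of the Schwann cell and rod markers, 0 of 6 and 0 of 6 were called by DESeq2, with 2 and 0 at an unadjusted p under 0.05. All listed markers had a baseMean above 0, and markers with no p-value in the table, such as Pecam1, Rdh5, Mitf and Ckm, were left out of the counts. The part of cell numbers in the values of the 10 genes was not tested.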

How the data were processed

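RNA from RPE/choroid of 3 young and 3 aged mice was sequenced by the authors after ribosomal RNA removal, with a stranded kit. The authors used BBDuk for trimming, STAR with Ensembl GRCm38 transcripts for mapping, Sailfish for TPM values, which they turned into normalized counts by total count, and DESeq2. How reads that fit several genes were shared out is not given in the sources used here. The deposited baseMean is a normalized signal, averaged over the 6 libraries by the authors. The authors deposited log2 fold changes with SEs. Their quotient is the deposited Wald score, and the p-value and adjusted p-value were deposited by the authors from DESeq2. The table has 0 columns that name a sample, so no test per gene was rerun, no count test was possible, and no per-mouse spread, leave-one-out fit or comparison of replicates could be made. p-values reflect the spread between these libraries, which the labels list as separate samples.

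Called means an adjusted p under 0.05 over the 18636 genes with one. Intervals are 95% normal intervals from the SE. The largest SEs end in a sharp upper edge and fall again in the rarest genes, as fold changes shrunk towards 0 would give; neither file nor methods state shrinkage, and if present, changes of low or variable genes are understated. Group means are 2 × baseMean split by the fold change. Exon lengths, positions and 31-base words come from GENCODE M21 (GRCm38), promoters from RefSeq GRCm38.p6. The adjustment, centring and calls were tested on simulated fold changes. The 10 genes, the other 13 lists and their alternatives were chosen with earlier results of these data known. Named genes are the 10, up to 3 called each way in each other list by size of change, and Comp, Spp1, Ccn1, Ccn2, Tgfbi, Sparcl1, Cd36, Cd47 and Cd44; Mtx1, Tnxa, Lum, Pdgfra, Rgs5, Cspg4, Pdgfrb, Fbln1, Acta1, Krt genes and Gm4117 were added after values were seen. Protein sequence features planned were not analysed here, and values of some listed markers are not reported here. Python 3.11.15, pandas 2.3.3, scipy 1.17.1.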

Additional observations from a re-analysis of the deposited data

How the results depend on the processing

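The count of 8 called genes among the 10 stayed at 7 or 8 under an adjusted p below 0.01, with no filter on low genes, over genes with a baseMean of at least 100 and after centring. Tnxb was the call lost at 0.01. A further limit on size, a change of 1 or more on the log2 scale either way, which is stricter by construction, left 3 of the 10 (Postn, Sparc and Vcan, 4.62% of all genes tested being that far down), 3 of 11 other matricellular genes, 1 of 9 receptors (Cd36), 6 of 15 matrix partners and 18 of 31 cell type markers. Under the other 4 settings the counts of these 5 groups of genes, with all cell type markers pooled, stayed within 1.5 times. Single marker lists were not recounted, and at 0.01 the only endothelial call, Tek, was lost. None of the 10 genes and of the others named by rule changed direction. Genes added after values were seen were not rechecked. Pdgfrb, one of these, had a change about as small as the centring shift of 0.065, so its direction is not established. Sparc held 40.8% of the summed level of the 10 genes per kb of exon and 61.7% per kb of coding length, and without division by length Thbs1 held the largest share, 29.5%. No paired analysis was possible because single libraries have no values here, and leaving out each replicate was not run either. Depth per library is unknown here.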

Other observations

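Vcan is overlapped on the opposite strand by the antisense gene Gm4117, which was lower in aged mice as well, with a log2 fold change of -1.48 (SE 0.45, DESeq2 adjusted p 0.00844) at a baseMean of 163. Its SE, like that of Vcan, was large. The library kit keeps strand, but whether the authors' quantification used it is not given in the sources used here.

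Beside Vcan, 11 genes of the imprecise band were lower in aged mice, and those named here were chosen after their values were seen. Kera (keratocan, a proteoglycan of cornea and sclera) had -3.38 (SE 0.41), Col9a1 -1.77 (SE 0.43), and the basement membrane collagens Col4a5 and Col4a6 had -1.58 (SE 0.37) and -1.26 (SE 0.40). The other 7 were Car3 (carbonic anhydrase 3), Gm10800, SNORA53, Gm16185, Scarna10, 4632427E13Rik and 2810055G20Rik, from -1.87 to -1.09. The 3 genes of that band that rose were Fabp5 at 2.86 (SE 0.38), Lgals3 at 2.35 (SE 0.37) and Serpina3n at 1.53 (SE 0.40). In the band 8.62% of genes were called, against 23.3% of the other genes with a baseMean of at least 300, and the smallest change called in it was 1.09 on the log2 scale. The 5 keratins named ran from -1.12 to -0.49 with SEs from 0.42 to 0.45, and 0 of them passed DESeq2, with Krt13 at an adjusted p of 0.0583.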
